A study of Mus musculus with 56 samples.

Results

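The genes described here are 10 receptors, bridging ligands and adaptors through which microglia and astrocytes recognise and engulf dying cells, synapses and debris: Mertk, Axl, Tyro3, Gas6, Pros1, Megf10, Gulp1, Trem2, Tyrobp and Adgrb1. They were taken by gene symbol from the count tables, where each symbol names 1 gene, and are 10 of the 43902 genes present in all 3 tables. Every one of the 10 had counts in all 56 libraries and passed the filter on low counts in all 14 comparisons.

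Cells marked for removal expose phosphatidylserine on their surface. Tyro3, Axl and Mertk are receptor tyrosine kinases (the TAM family) that reach this lipid through the soluble bridging proteins encoded by Gas6 and Pros1. Gas6 binds all members of the family, and protein S, the product of Pros1, acts mainly on Tyro3 and Mertk. Adgrb1 (BAI1) is an adhesion receptor that binds phosphatidylserine directly, Megf10 is an engulfment receptor through which astrocytes take up synapses, and Gulp1 encodes a cytoplasmic adaptor that binds receptors of the Megf10 and Lrp1 type. Trem2 is a lipid-sensing receptor of microglia and other myeloid cells that signals through the adaptor Tyrobp (DAP12).

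RNA came from mouse barrel cortex, the cortical map of the whiskers, collected at postnatal day 5, 24 h after whiskers on the right side were burned away on day 4. The question was which genes of astrocytes and microglia respond to the loss of whisker input. Ribosomes carrying L10a fused to EGFP were pulled down from 1 cell type with an antibody to EGFP, and libraries were made of the pulled-down (bound) RNA and of what stayed behind (unbound). The astrocyte line, Aldh1l1::eGFPL10a, carries the tag under the astrocyte promoter of Aldh1l1 and received no tamoxifen. The heterozygous microglial line, Cx3cr1CreErt2/+(Litt) Eef1a1LSL.eGFPL10a/+, makes the tag after tamoxifen frees Cre, which is written into 1 copy of the fractalkine receptor gene Cx3cr1. The knockout microglial line, Cx3cr1CreErt2/CreErt2(Litt) Eef1a1LSL.eGFPL10a/+, carries Cre in both copies. Both microglial lines received tamoxifen on postnatal days 1 to 3, by mouth at 50 µg a day in the protocol, which names the heterozygous line. Cx3cr1 is also used by macrophages at the brain's borders, so the tag is not limited to microglia. Each line gave deprived and control libraries of both fractions, 5 per group in the astrocyte and knockout lines and 4 in the heterozygous line, in 12 groups. Every library is labelled as coming from a mouse with lesioned whiskers, so control means cortex that kept its input in such a mouse. The labels call the unbound RNA whole tissue, so it still holds RNA of the tagged cells.

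Library totals were 10.1M to 28.6M counts (M, 1000000) in the astrocyte line, 32.8M to 50.7M in the heterozygous line and 34.6M to 56.7M in the knockout line. Cx3cr1 was at 7.24 to 13.7 CPM (counts per 1000000 counts) in heterozygous and 0.372 to 1.40 CPM in knockout bound RNA. Defining markers fitted the labels of the pulldowns: 22 microglia markers summed to 339.6 to 671 CPM in heterozygous, 191 to 608 CPM in knockout and 85.8 to 99.1 CPM in astrocyte bound libraries. The 20 astrocyte markers summed to 4250.5 to 5486 CPM in astrocyte bound RNA and to 1467 to 1949.6 CPM in bound RNA of the microglial lines, and were therefore reduced in the microglial pulldowns without being removed. The 10 border macrophage markers summed to 9.31 to 88.6 CPM in heterozygous and 8.41 to 123 CPM in knockout bound RNA. Neuron markers were not removed by any pulldown. Their summed medians in bound and unbound RNA were 10489.7 and 9474.8 CPM in the heterozygous and 11021.1 and 9299.3 CPM in the knockout line. In the astrocyte line they were 7358.1 and 7516.8 CPM. The part of neuron RNA in the enrichment of the members was not tested. The bound libraries of knockout mouse 7 had the lowest microglia marker sums of both microglial lines, at 191 and 234 CPM. The next lowest were knockout pieces 12R at 293 and 18L at 315 CPM. In the heterozygous line the 4 deprived libraries of a fraction came from 3 mice (14, 15 and both hemispheres of 17) and the 4 control libraries from 3 mice (14, 15 and both hemispheres of 21). The side letters of pieces 17R and 21L do not match the side that lost its input, and the groups here follow the library titles.

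Sequences upstream of 7 members were found in a RefSeq table of build GRCm38.p6 (those of Mertk, Axl, Tyro3, Gas6, Pros1, Gulp1 and Trem2, but not Megf10, Tyrobp and Adgrb1). They were searched on both strands for GAGGAA, the core recognised by PU.1, the transcription factor that defines myeloid cells. The 250 bases before the RefSeq start of Trem2, Axl and Gulp1 are shown because these members lie at the ends of the microglia to astrocyte range described below. Capitals mark the core or its reverse complement, and all 3 are written 5′ to 3′ on the strand of the gene. Trem2 is from chr17:48346151-48346400 (+ strand), Axl from chr7:25788734-25788983 (- strand) and Gulp1 from chr1:44551421-44551670 (+ strand). The last 160 bases of the Gulp1 window lie inside the gene as GENCODE annotates it, since its RefSeq start is further downstream. All 250 bases searched for Tyro3 lie inside its gene too. The RefSeq starts of Mertk and Gas6 lie upstream of their GENCODE genes, and the bases just after these starts matched no GENCODE transcript.
Trem2: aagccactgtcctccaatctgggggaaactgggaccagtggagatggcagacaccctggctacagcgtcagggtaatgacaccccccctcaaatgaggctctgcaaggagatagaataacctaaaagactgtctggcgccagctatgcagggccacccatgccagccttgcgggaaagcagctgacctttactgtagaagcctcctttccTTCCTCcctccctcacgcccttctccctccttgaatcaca
Axl: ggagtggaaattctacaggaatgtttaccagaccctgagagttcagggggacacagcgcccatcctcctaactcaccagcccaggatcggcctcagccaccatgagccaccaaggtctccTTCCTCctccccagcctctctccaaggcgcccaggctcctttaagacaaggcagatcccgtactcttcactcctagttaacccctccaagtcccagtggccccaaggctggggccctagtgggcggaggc
Gulp1: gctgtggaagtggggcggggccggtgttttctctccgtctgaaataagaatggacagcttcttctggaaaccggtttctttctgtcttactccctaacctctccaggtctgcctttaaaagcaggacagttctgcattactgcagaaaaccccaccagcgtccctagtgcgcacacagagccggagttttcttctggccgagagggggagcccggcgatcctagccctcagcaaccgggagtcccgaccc
The core was found 1 time in Trem2, starting 40 bases before the RefSeq start, and 1 time in Axl, 130 bases before it. It was not found in the windows of Mertk, Tyro3, Gas6, Pros1 and Gulp1. Of 32851 promoter windows of the same length, 23.25% hold it, so it does not set Trem2 or Axl apart from promoters in general, and the astrocyte-rich Axl shares it with the microglial Trem2.

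Levels were compared between genes as CPM per kilobase of exon. In bound RNA of the microglial lines the highest level was that of the adaptor Tyrobp, at 62.8 ± 14.3 CPM per kb over the 8 heterozygous libraries and 46.7 ± 17.1 over the 10 knockout libraries (mean ± SD). Its receptor Trem2 was the lowest of the 10 there by this measure, at 1.33 ± 0.303 and 1.07 ± 0.445 CPM per kb. That rank depends on the length used, for Trem2 the 4946 bases of all its annotated exons merged. In CPM without length, Trem2 was at a mean of 6.60 in heterozygous bound RNA, above Gulp1 at 6.32. In knockout bound RNA it was below Gulp1, at 5.29 against 6.47 CPM. In astrocyte bound RNA the order was led by Adgrb1 at 9.49 ± 0.921 CPM per kb and the ligand Gas6 at 8.39 ± 0.923 (SD, n = 10 each), whose ranges overlapped (7.68 to 10.6 and 7.01 to 10.1). Megf10 at 5.11 ± 0.752 and Axl at 4.19 ± 0.579 CPM per kb followed, again with overlapping ranges. Mertk, Pros1 and Tyro3 lay together between 1.52 and 1.71 CPM per kb. Trem2 was last at 0.144 ± 0.0637 CPM per kb, from 5 to 42 counts a library. Among the TAM receptors Axl had the highest mean in bound RNA of all 3 lines, while in unbound RNA of the astrocyte line its range overlapped that of Tyro3 (1.71 ± 0.159 and 1.54 ± 0.121 CPM per kb). Between the ligands, Gas6 stood above Pros1 in every line and fraction, at 13.5 ± 1.38 against 2.52 ± 0.449 CPM per kb in heterozygous bound RNA.

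**Figure D1:**
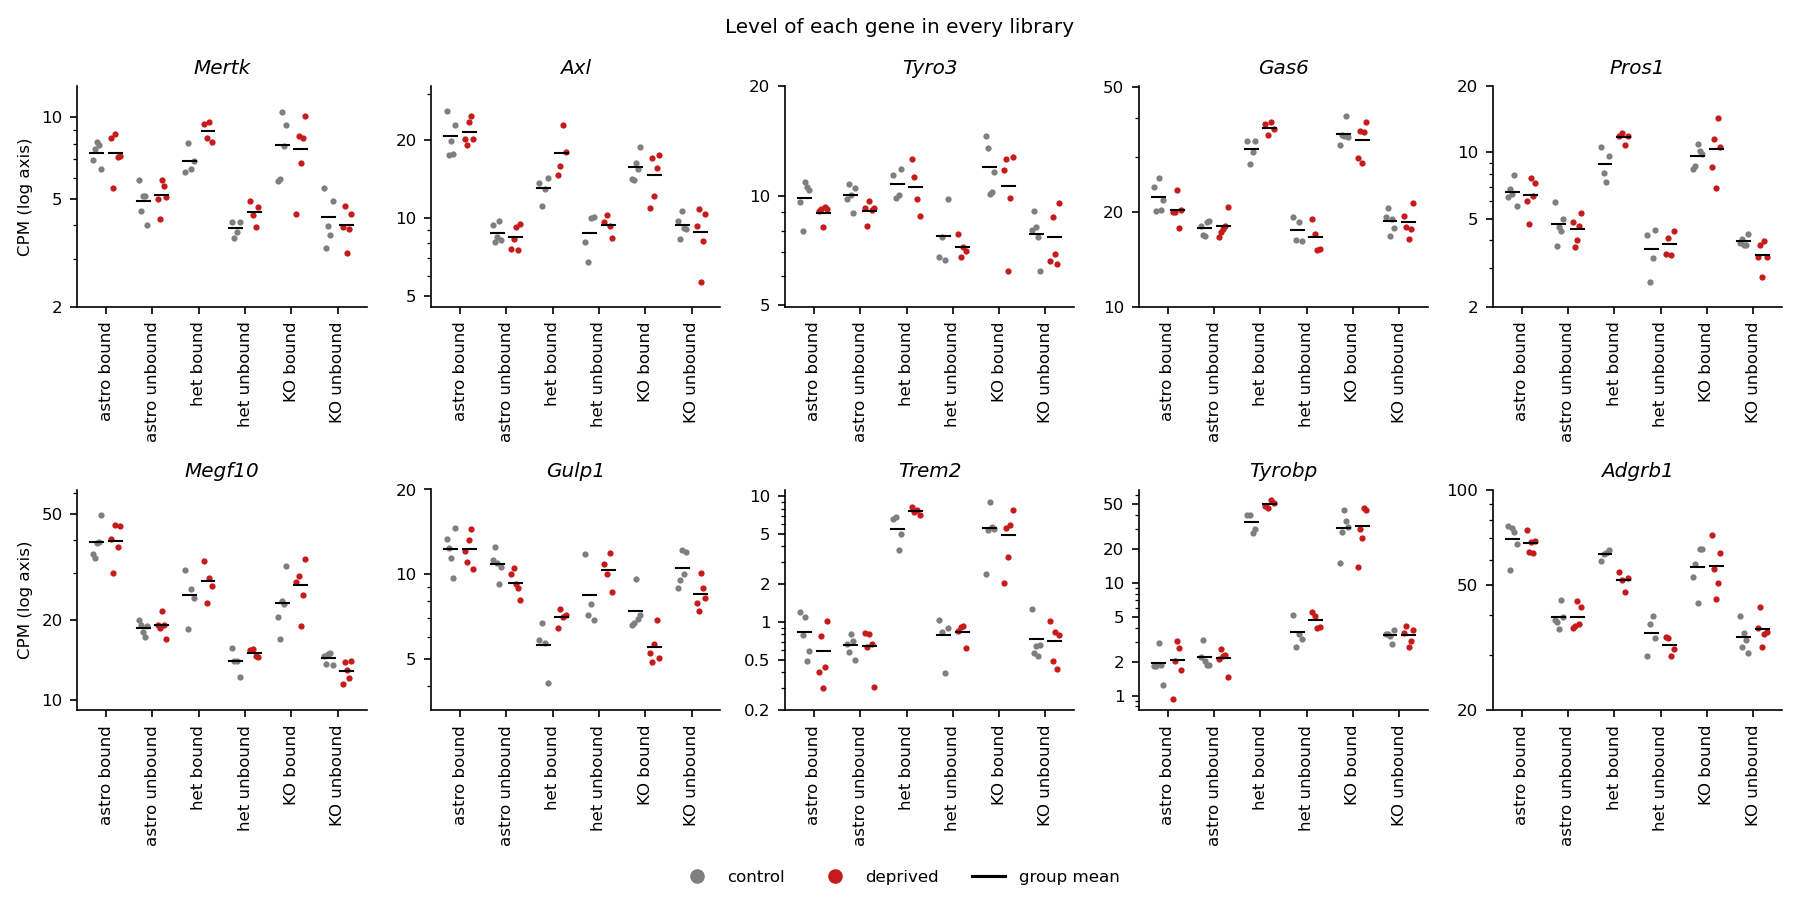
CPM on a log axis (each panel with its own range) of the 10 genes in all 56 libraries, by line (astro, astrocyte; het, heterozygous microglial; KO, knockout microglial), fraction and condition, with black lines at group means. Trem2 and Tyrobp are at 2.06 to 9.07 and 13.8 to 53.5 CPM in bound RNA of the microglial lines and at most 5.49 CPM everywhere else, and Gulp1 is the member that is lower in their bound than in their unbound RNA.

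Trem2, Tyrobp and Tyro3 were enriched in the pulldowns of both microglial lines and not called as enriched in that of the astrocyte line. Gulp1 was enriched in the astrocyte pulldown and depleted in the microglial ones. The other 6 members were enriched in all 3 lines. In each microglial line all 10 members were called (edgeR quasi-likelihood test, adjusted p below 0.05), against 62.6% of the genes tested in the heterozygous mice and 61.9% in the knockouts. Of these, 9 were higher in bound than in unbound RNA, against 31.8% and 31.6% of all genes. The other, Gulp1, was lower, as were 30.8% and 30.4% of all genes. Of the 10, 7 were called in the astrocyte line (59.1% of all genes), all of them higher (31.5%) and none lower (27.6%). Bound and unbound libraries did not overlap for 3 members in the astrocyte line (21.4% of all genes), 8 in the heterozygous line (28.2%) and 7 in the knockout line (22.7%). More RNA per tagged cell and more tagged cells cannot be told apart in such samples.

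The receptor and adaptor pair of microglia had the largest enrichment of the 10. Trem2 (chr17:48346401-48354147 in GRCm38, 5 exons) ranged from 3.75 over a median of 7.01 to 8.17 CPM in heterozygous bound RNA and from 0.393 over 0.881 to 1.05 CPM in unbound RNA. The log2 ratio was 2.96 ± 0.16 (SE, 7.80-fold, adjusted p = 1.67e-12) in heterozygous mice and 2.84 ± 0.25 (adjusted p = 1.22e-09) in knockouts, where it was 3.27 ± 0.19 without mouse 7. Tyrobp (chr7:30413760-30417585, 6 exons) ranged from 27.4 over a median of 42.9 to 53.5 CPM in heterozygous bound RNA, against 2.67 over 3.99 to 5.49 CPM in unbound RNA. Its log2 ratio was 3.30 ± 0.12 (9.87-fold, adjusted p = 3.60e-15) in heterozygous mice and 3.16 ± 0.19 (adjusted p = 1.83e-12) in knockouts (3.35 ± 0.14 without mouse 7). Bound and unbound libraries of these lines did not overlap for either gene. The ratios of the astrocyte line were 0.07 ± 0.25 for Trem2 (adjusted p = 0.820) and -0.13 ± 0.18 for Tyrobp (adjusted p = 0.560). The microglia markers behaved alike in the microglial lines: all 22 were higher in bound RNA of both, with medians of 2.77 and 2.71 on the log2 scale. In astrocyte bound RNA 14 of the 20 tested were lower, unlike Trem2 and Tyrobp. Their summed level there was not lower, with a median of 93.2 CPM in bound and 86.7 CPM in unbound RNA and overlapping ranges.

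The 3 TAM receptors differed in how they were shared between the pulldowns. Axl (chr7:25757273-25788705, - strand, 19 exon blocks) had its highest level in bound RNA of the astrocyte line, from 17.5 over a median of 20.1 to 25.7 CPM. In unbound RNA of that line it ranged from 7.51 over 8.41 to 9.77 CPM. The log2 ratio was 1.29 ± 0.08 in the astrocyte (adjusted p = 1.12e-13), 0.73 ± 0.10 in the heterozygous (adjusted p = 2.79e-06) and 0.71 ± 0.11 in the knockout line (adjusted p = 3.06e-06). Mertk was enriched in every pulldown, at 0.54 ± 0.10 in the astrocyte line (adjusted p = 2.73e-05) and 0.89 ± 0.08 in the heterozygous line (adjusted p = 7.39e-09). Its bound libraries ranged from 5.47 to 8.66 CPM in the astrocyte line and from 6.27 to 9.58 CPM in the heterozygous line, at nearly the same level. Tyro3 was not called in the astrocyte line (-0.03 ± 0.07, adjusted p = 0.760) and was higher in microglial bound RNA (0.49 ± 0.09 and 0.52 ± 0.12, adjusted p = 8.21e-05 and 4.80e-04). Its bound and unbound libraries overlapped in all 3 lines, and in the heterozygous line bound was above unbound in 8 of 8 pieces.

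Both bridging ligands were drawn more by the microglial than by the astrocyte pulldown. Gas6 ranged from 28.4 over a median of 34.5 to 38.7 CPM in heterozygous bound RNA and from 15.2 over 16.7 to 19.3 CPM in unbound RNA, with no overlap (log2 ratio 0.98 ± 0.06, adjusted p = 1.48e-11). Its libraries of the astrocyte line overlapped between fractions and the log2 ratio was 0.24 ± 0.06 (adjusted p = 0.00113). Pros1 had the largest ratio after Tyrobp and Trem2 in the microglial lines, 1.42 ± 0.11 (2.68-fold, adjusted p = 4.32e-10) and 1.41 ± 0.11 (adjusted p = 6.44e-11), against 0.48 ± 0.10 (adjusted p = 2.79e-04) in the astrocyte line. Gas6 shares 34 exonic bases with Tmem255b on the opposite strand, and because the strand used in counting is not given in the sources used here, reads from those bases cannot be told apart.

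Of the engulfment receptor Megf10, the astrocyte bound libraries held 30.1 to 49.3 CPM with a median of 38.9, above the 16.9 to 21.5 CPM of the unbound libraries. Its log2 ratio was 1.05 ± 0.08 in the astrocyte line (adjusted p = 2.84e-12). It was enriched in the microglial pulldowns too, at 0.84 ± 0.09 and 0.86 ± 0.10 (adjusted p = 6.33e-08 and 7.91e-08), in the same bound RNA in which 12 of 20 astrocyte markers were lower and 3 were higher. Adgrb1 (chr15:74516195-74589465, 34 exon blocks) was enriched in all 3 lines at 0.79 ± 0.06, 0.73 ± 0.06 and 0.68 ± 0.08 (adjusted p = 3.74e-12, 6.52e-10 and 2.14e-07). Its bound libraries did not overlap the unbound ones in any line, with bound ranges of 55.5 to 76.5, 47.4 to 64.4 and 43.8 to 72.0 CPM. Of its exonic bases, 95 are shared with the microRNA gene Gm26117. Gulp1 (chr1:44551511-44796838, 15 exon blocks) went opposite ways in the astrocyte and microglial pulldowns. Its log2 ratio was 0.28 ± 0.08 in the astrocyte line (adjusted p = 0.00524) and -0.59 ± 0.12 and -0.59 ± 0.09 in the microglial lines (adjusted p = 1.70e-04 and 6.27e-06). Heterozygous libraries ranged from 4.10 to 7.49 CPM bound and from 6.87 to 11.9 CPM unbound, and bound was below unbound in 8 of 8 pieces.

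**Figure D2:**
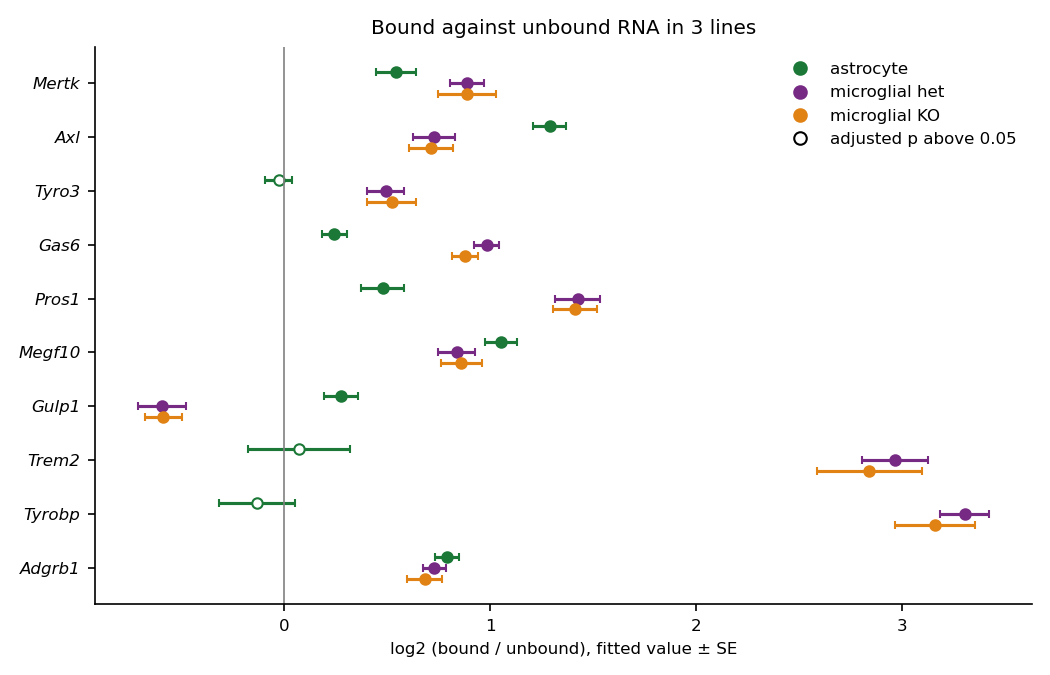
Fitted log2 ratio of bound to unbound RNA ± SE for each gene in the astrocyte (green), heterozygous microglial (purple) and knockout microglial (orange) line; open circles mark an adjusted p above 0.05. Trem2 and Tyrobp are near 0 in the astrocyte line and near 3 in the microglial lines, and Gulp1 lies above 0 in the astrocyte line and below it in both others.

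Enrichment in all 3 pulldowns, seen for 6 of the 10 members (Mertk, Axl, Gas6, Pros1, Megf10 and Adgrb1), was found for 17.8% of the 17616 genes tested in all 3 lines. Enrichment in the astrocyte line with depletion in both microglial lines was found for 1 of 10, Gulp1, against 3.24% of genes. The difference between the lines was then tested itself, as the log2 ratio of the astrocyte minus that of the heterozygous line. Enrichment was greater in the astrocyte line for Gulp1 (0.95 ± 0.14, adjusted p = 1.03e-06) and Axl (0.64 ± 0.13, adjusted p = 1.11e-04). It was greater in the heterozygous line for Tyrobp (-3.36 ± 0.22, adjusted p = 5.88e-16), Trem2 (-2.82 ± 0.28, adjusted p = 8.07e-11), Pros1 (-0.87 ± 0.15), Gas6 (-0.66 ± 0.09) and Tyro3 (-0.44 ± 0.11, adjusted p = 0.00117). So 7 of 10 members differed between the pulldowns of these lines, against 41.8% of genes, and the median difference over all genes was 0.14. Mertk (-0.27 ± 0.13, adjusted p = 0.0947), Megf10 (0.29 ± 0.12, adjusted p = 0.0512) and Adgrb1 (0.14 ± 0.08, adjusted p = 0.191) were not called. With the piece of cortex as a block Megf10 was called (0.30 ± 0.10, adjusted p = 0.0126). With DESeq2 size factors Mertk was called (-0.33 ± 0.13, adjusted p = 0.0389). Against the knockout line, which shares the astrocyte libraries with the first comparison, 7 of 10 members differed, against 39.8% of genes, with values from 0.87 ± 0.12 for Gulp1 to -3.28 ± 0.28 for Tyrobp. Lines coincide with count tables, with tamoxifen and with depth, and these cannot be told apart from the cell type. Mitochondrial ribosomal RNA (mt-Rnr1 and mt-Rnr2) took 20.5% to 31.1% of the counts in unbound libraries of the microglial lines, 3.50% to 6.11% in those of the astrocyte line and 1.40% to 3.53% in all bound libraries. This share differs by line and fraction, and its part in the enrichment values was not tested.

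Other genes of the same system were read from lists. The filter on low counts keeps a gene that passes in either fraction alone. A gene scarce in unbound RNA could thus be tested only through its bound level, here and in the lists below. The counts of genes higher in bound RNA are therefore descriptive. Of 27 other engulfment receptors, 24 were tested in the heterozygous line, and 21 were higher and 1 lower in bound RNA. Their median log2 ratio was 1.95 against -0.01 over all genes. Of all genes, 31.8% were higher and 30.8% lower there. Examples are Lrp1, a receptor for apolipoproteins and engulfment ligands (1.85 ± 0.08), Havcr2 (Tim-3, 2.59 ± 0.12), the Fc receptor Fcgr3 (2.38 ± 0.11) and the complement receptor C3ar1 (2.04 ± 0.10), while the scavenger receptor Scarb1 was lower (-0.42 ± 0.08). In the knockout line 23 of 24 were higher and 1 lower (median 1.67), against 31.6% and 30.4% of all genes. The receptors higher in that line included Itgb2, the beta chain of complement receptor 3 (3.06 ± 0.21), and the scavenger receptor Stab1 (2.81 ± 0.23). Among astrocyte libraries 7 of 20 were higher and 4 lower (median -0.05, all genes 0.03), near the 31.5% and 27.6% of all genes. The integrin chains Itgb5 (1.78 ± 0.11) and Itgav (0.83 ± 0.06), Lrp1 (1.74 ± 0.14) and Adgrb2 (0.55 ± 0.05) were higher, and Fcgr3 (-1.11 ± 0.19) and C3ar1 (-0.71 ± 0.14) lower. Lrp1 was thus enriched in every pulldown, as Mertk and Megf10 were.

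Of 20 other bridging and exposure factors, 12 of 19 tested were higher and 4 lower in heterozygous and likewise 12 and 4 in knockout bound RNA (medians 0.37 and 0.35). For astrocytes 8 of 19 were higher and 5 lower (median 0.13). Of all genes, 31.8% were higher and 30.8% lower in the heterozygous and 31.6% and 30.4% in the knockout line. In the astrocyte line these shares were 31.5% and 27.6%, and they apply to the signalling list below too. Mfge8, a bridging protein between phosphatidylserine and integrins, had an astrocyte log2 ratio of 1.72 ± 0.06 and exceeded that of the heterozygous line by 2.26 ± 0.12. Apoe (1.94 ± 0.05) and the complement gene C4b (1.93 ± 0.16) were higher in astrocyte bound RNA as well. Clu, another apolipoprotein, was higher in astrocyte (0.97 ± 0.06) and lower in heterozygous bound RNA (-0.92 ± 0.06), and C3 was higher in the latter (1.66 ± 0.17). Where Mfge8, Apoe and Clu were thus drawn more by the astrocyte pulldown, the TAM ligands Gas6 and Pros1 were drawn more by the microglial ones. Of 29 signalling and cargo genes, 20 of 29 were higher and 4 lower in heterozygous, and 20 of 28 and 4 in knockout bound RNA (medians 0.81 and 0.68). They were led by Vav1 (3.25 ± 0.13), Rac2 (3.03 ± 0.13) and Fcer1g (3.04 ± 0.11), an adaptor with the same type of signalling motif as Tyrobp. For astrocytes 13 of 27 were higher and 8 lower (median 0.31), with Dock1, an activator of Rac in engulfment, at 1.23 ± 0.06 and its partner Elmo1 at -0.51 ± 0.06.

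Between deprived and control cortex 3 of the 10 members were called in 1 of the 6 comparisons, bound RNA of the heterozygous microglial line, where 10.3% of 18001 genes were called. Tyrobp and Axl rose, with 5.52% of all genes higher, and Adgrb1 fell, with 4.76% of all genes lower. Tyrobp was at 48.0, 46.0, 53.5 and 51.2 CPM in deprived pieces 14L, 15L, 17L and 17R and at 39.7, 39.8, 27.4 and 29.7 CPM in control pieces 14R, 15R, 21L and 21R. All deprived values lay above all control values, and the controls of mouse 21 were the lowest. The log2 difference was 0.53 ± 0.12 (1.44-fold, adjusted p = 0.0146). Axl was at 14.6, 15.9, 22.9 and 18.0 CPM in the deprived and 13.7, 11.1, 12.9 and 14.2 CPM in the control pieces, in the same order. The groups did not overlap, by a margin of less than 1 CPM, and the difference was 0.45 ± 0.13 (1.36-fold, adjusted p = 0.0494). Adgrb1 was at 54.9, 51.8, 47.4 and 52.6 CPM in deprived and 59.4, 62.3, 63.1 and 64.4 CPM in control pieces, again without overlap, and fell by 0.28 ± 0.07 on the log2 scale (adjusted p = 0.0187).

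A further 4 members had deprived libraries above all controls without passing the test. Trem2 was at 8.17, 7.52, 7.75 and 7.15 CPM deprived and 6.63, 6.86, 3.75 and 4.99 CPM control (0.45 ± 0.17, adjusted p = 0.111). Mertk was at 9.44, 8.39, 9.58 and 8.10 CPM deprived and 6.27, 8.06, 6.47 and 6.89 CPM control (0.35 ± 0.12, adjusted p = 0.0775). Pros1 was at 11.9, 12.3, 10.8 and 11.9 against 10.6, 8.03, 7.37 and 9.60 CPM (0.38 ± 0.12, adjusted p = 0.0626). For Gas6 the values were 38.2, 35.1, 38.7 and 36.7 against 33.7, 28.4, 30.997 and 33.8 CPM (0.22 ± 0.08, adjusted p = 0.0978). In all, 6 of 10 members lay above and 1 below their controls without overlap, where 9.22% and 7.46% of all genes did. The remaining members, Gulp1 (0.32 ± 0.15), Megf10 (0.16 ± 0.14) and Tyro3 (-0.04 ± 0.12), had overlapping groups.

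The 3 calls rested on few animals. With the mouse as a block, which leaves the difference to the pairs of mice 14 and 15, none was called: Tyrobp was at 0.21 ± 0.09 (adjusted p = 0.221), Axl at 0.27 ± 0.16 (adjusted p = 0.350) and Adgrb1 at -0.22 ± 0.09 (adjusted p = 0.206). With the libraries of mouse 17 and of mouse 21 summed, so that each mouse counts 1 time per group, they were at 0.42 ± 0.13, 0.39 ± 0.14 and -0.26 ± 0.08 (adjusted p = 0.0756, 0.125 and 0.0716). Without pieces 17R and 21L, whose side letters go against their titles, they were at 0.42 ± 0.12, 0.44 ± 0.17 and -0.29 ± 0.09 (adjusted p = 0.0764, 0.159 and 0.0805). With all pieces grouped by side letter in place of title they were at 0.11 ± 0.20, 0.20 ± 0.18 and -0.15 ± 0.10, and neither they nor any other gene was called by edgeR. Leaving out 1 library at a time, Tyrobp lost its call only without control piece 21R (0.46 ± 0.13, adjusted p = 0.0514), and Adgrb1 without deprived piece 15L or 17L or control piece 21R (adjusted p = 0.0508 to 0.0573). Axl kept its call only without deprived piece 14L, and was at 0.30 ± 0.12 (adjusted p = 0.138) without deprived piece 17L and at 0.44 ± 0.13 (adjusted p = 0.0538) with the size factors of DESeq2.

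Markers of microglia, border macrophages and astrocytes rose with Tyrobp and Axl in the same libraries, in which Adgrb1 fell. Astrocytes are not tagged in this line. The summed microglia markers were at 576 to 671 CPM in deprived and 339.6 to 485 CPM in control bound RNA, 11 of 22 were called higher, all 22 lay above 0 and their median was 0.51, beside 0.33 for the 10 members and 0.01 for all genes. Border macrophage markers summed to 65.2 to 88.6 CPM in deprived and 9.31 to 42.9 CPM in control libraries, and 6 of 9 tested were called higher (median 1.41). Astrocyte markers summed to 1757 to 1889.8 against 1467 to 1635 CPM, with 7 of 20 called higher. Of all genes, 5.52% were higher. In unbound RNA of the same pieces, border macrophage markers summed to 13.8 to 20.5 CPM deprived and 2.12 to 10.7 CPM control. Cd163, F13a1 and Ms4a7 were called higher there, and Mrc1, Lyve1 and Pf4 were not. Astrocyte markers summed to 2469 to 2631 against 1959 to 2389 CPM there. Microglia markers overlapped, at 77.8 to 87.7 against 64.5 to 86.5 CPM. No marker of these 3 cell types was at 0 in all libraries of a group. Of the other lists, 1 of 14 neuron markers was higher and 2 lower, 2 of 11 oligodendrocyte markers were lower, none of 11 endothelial markers was called and 1 of 8 mural and meningeal markers was higher. When library sizes were replaced by the summed counts of the 22 microglia markers, the differences were 0.04 ± 0.16 for Tyrobp (adjusted p = 0.831), -0.02 for Trem2 and -0.09 ± 0.18 for Axl (adjusted p = 0.670). That scaling moved the median of all genes to -0.51. Under it Tyro3 was at -0.55 ± 0.18 (adjusted p = 0.0137) and was called, as was Adgrb1 at -0.80, and Mertk, Gas6, Pros1, Megf10 and Gulp1 lay between -0.36 and -0.11 and were not called. Per 1000 CPM of microglia markers, Tyrobp was at 79.6 to 87.9 in deprived and 74.7 to 83.4 in control libraries, with overlapping groups.

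**Figure D3:**
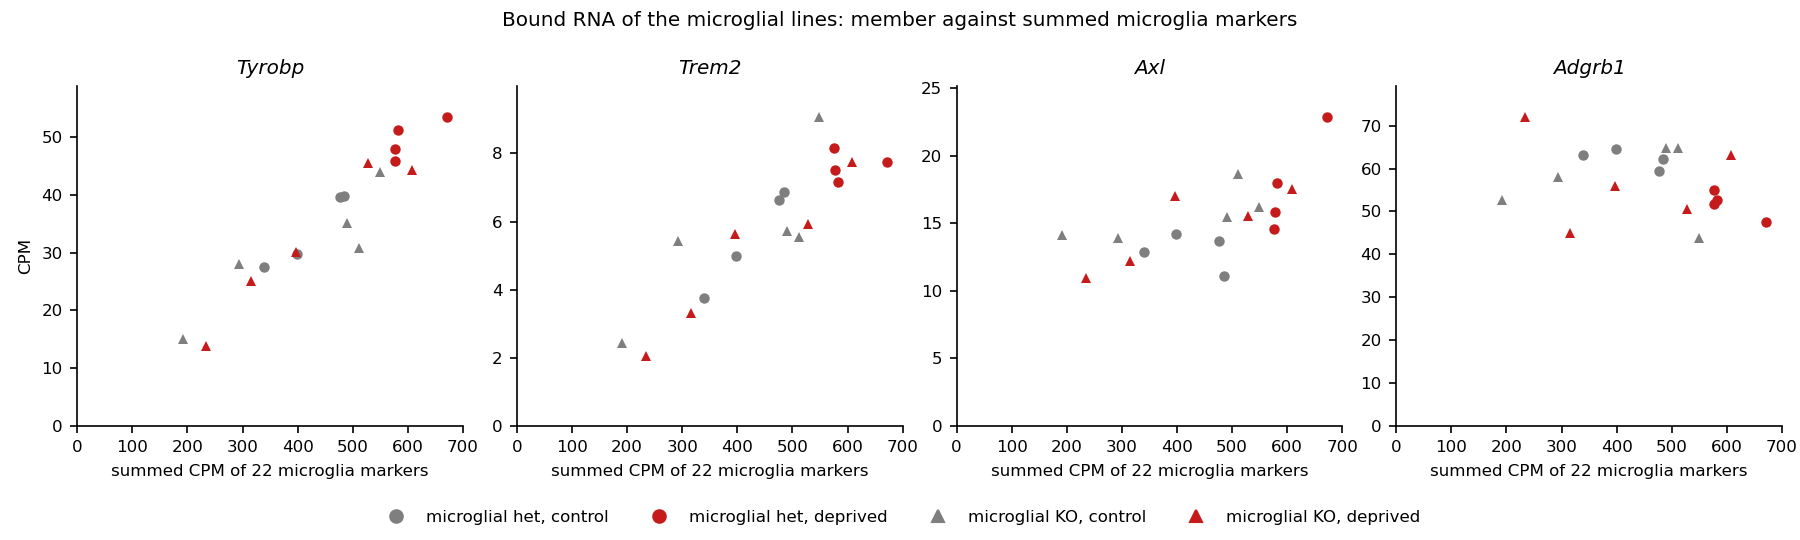
CPM of Tyrobp, Trem2, Axl and Adgrb1 against the summed CPM of 22 microglia markers in the 18 bound libraries of the heterozygous (circles) and knockout (triangles) microglial lines, with deprived libraries in red and controls in grey. The deprived heterozygous libraries lie at 576 to 671 CPM of markers, above their controls, and knockout mouse 7 gives both points with the lowest marker sums.

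Of the other engulfment receptors, 10 of 24 rose and 1 fell in the same comparison, with a median of 0.50. Over all genes 5.52% rose and 4.76% fell. The lipid scavenger receptor Cd36 rose by 1.42 ± 0.26 (adjusted p = 0.00520), C3ar1 by 0.55 ± 0.10 and Havcr2 by 0.66 ± 0.13, and the integrin chain Itgb3 fell by 0.76 ± 0.11 (adjusted p = 0.00201). Of 19 bridging and exposure factors, 1 rose, C3 (1.15 ± 0.22), and 2 fell, the scramblase family members Xkr4 (by 0.30 ± 0.07) and Xkr6 (by 0.35 ± 0.10). Of 29 signalling and cargo genes, 9 rose and none fell, led by Vav1 (0.69 ± 0.12), Rac2 (0.83 ± 0.17), Inpp5d (0.60 ± 0.13) and Dock2 (0.67 ± 0.15), all genes of blood cells and microglia. With the mouse as a block, Itgb3 alone of the 11 genes named here kept its call. The marker values given above hold beside these counts, and their part in them was not tested.

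In the remaining 5 comparisons no member was called. In heterozygous unbound RNA, where 3.75% of genes were called, member values lay between -0.09 ± 0.09 for Adgrb1 and 0.39 ± 0.19 for Tyrobp (adjusted p = 0.321). Of the lists, 1 of 22 receptors fell there (Itgb3, -0.53 ± 0.10), 1 of 27 signalling genes rose (Abca1, 0.31 ± 0.08), and no bridging factor was called. In the astrocyte line no gene was called in either fraction (percent called 0 in both, with 1067 of 17685 bound and 1043 of 16846 unbound genes at an unadjusted p below 0.05, and 7 and 0 genes called by DESeq2). Axl, the member with the largest astrocyte enrichment, was at 20.1, 19.1, 23.5, 24.7 and 20.04 CPM in deprived and 25.7, 17.5, 19.8, 17.6 and 22.7 CPM in control astrocyte bound libraries (0.04 ± 0.12). Megf10 was at 40.3, 30.1, 45.4, 37.5 and 44.8 CPM deprived and 35.2, 34.0, 38.7, 39.0 and 49.3 CPM control (-0.0024 ± 0.12). The groups overlapped for both. Over the 10 members, values in astrocyte bound RNA lay between -0.56 for Trem2 and 0.08 for Tyrobp. In unbound RNA of that line they lay between -0.23 for Gulp1 and 0.05 for Trem2. In the knockout line 0.00546% of bound and 0.038% of unbound genes were called. The trio called in heterozygous bound RNA was at 0.05 ± 0.29 for Tyrobp, -0.10 ± 0.14 for Axl and 0.01 ± 0.13 for Adgrb1 in knockout bound RNA. Over all members, values lay between -0.42 for Gulp1 and 0.21 for Megf10 in knockout bound RNA. In knockout unbound RNA they lay between -0.33 for Gulp1 and 0.06 for Adgrb1.

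**Figure D4:**
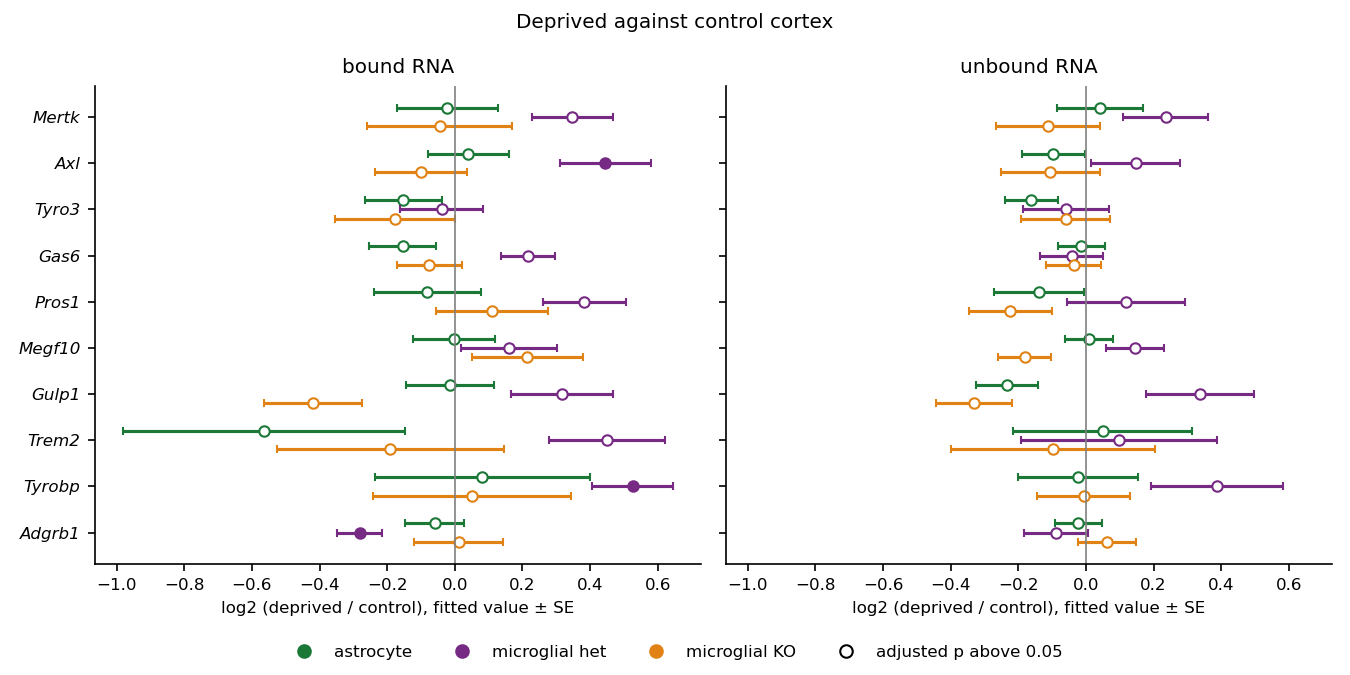
Fitted log2 ratio of deprived to control cortex ± SE for each gene in bound (left) and unbound (right) RNA of the astrocyte (green), heterozygous microglial (purple) and knockout microglial (orange) line; filled circles mark an adjusted p below 0.05. Only Tyrobp, Axl and Adgrb1 in heterozygous bound RNA are filled, at 0.53, 0.45 and -0.28.

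Gulp1 was lower on the deprived side in every knockout mouse and in both fractions, without passing the test. In bound RNA its deprived and control values were 5.25 and 6.58 CPM in mouse 7, 4.86 and 6.72 in mouse 12, 5.63 and 9.61 in mouse 18, 6.86 and 6.92 in mouse 19, and 5.06 and 7.18 in mouse 22. The difference was -0.42 ± 0.14 (unadjusted p = 0.0112 and adjusted p = 1.00 with edgeR), and 3.92% of genes were lower in all 5 mice. In unbound RNA it was -0.33 ± 0.11 (unadjusted p = 0.0102 and adjusted p = 0.986 with edgeR), where 3.23% of genes were lower in all 5. Both fractions came from the same pieces of cortex and are not independent.

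Genotype was compared in bound RNA of the microglial lines. No member differed in level between knockout and heterozygous libraries, where 0.0561% of genes were called. The lowest values were those of Tyrobp (-0.40 ± 0.19, adjusted p = 0.654) and Trem2 (-0.30 ± 0.22, adjusted p = 0.809), and of the 22 microglia markers all were below 0 (median -0.30). Without knockout mouse 7, where Tyrobp was at 13.8 and 15.0 and Trem2 at 2.06 and 2.43 CPM, the differences were -0.22 ± 0.12 and -0.11 ± 0.16. The other 8 members lay between -0.08 and 0.08. Whether deprivation acted differently in the genotypes was tested as an interaction, which was called for no member, against 0.51% of genes. It was largest for Gulp1, at -0.74 ± 0.21 (adjusted p = 0.0884), and DESeq2 called this gene (-0.72 ± 0.22, adjusted p = 0.0343). For Axl and Trem2 it was -0.55 ± 0.21 and -0.64 ± 0.44 (adjusted p = 0.180 and 0.475). The enrichment of bound over unbound RNA differed between genotypes for no member and, in the edgeR test, for 0 of 20676 genes (712 at an unadjusted p below 0.05, and 0 called by DESeq2). The labels name polyA RNA for the knockout and total RNA for the heterozygous libraries, which cannot be told apart from genotype.

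Across the 12 group means, genes of nearest pattern were sought among 9133 genes of mean log2 CPM of at least 3. These are descriptions over means that share libraries and scaling. Tyrobp was closest to Fbxo38 (Pearson r = 0.997) and Fcer1g (0.997), Trem2 to Hltf (0.994), and the pair correlated with each other at 0.984. Megf10 was closest to Notch2 (0.991), Axl to Cpt1a (0.986), Mertk to Mmut (0.993), Adgrb1 to Csmd2 (0.994), Gas6 to Eif2ak4 (0.990), Pros1 to Iars2 (0.990) and Tyro3 to Lingo3 (0.976). Gulp1, closest to Hspb6 (0.964), ran against Tyrobp (-0.872) and Trem2 (-0.832). Among the members outside that pair, Gas6 followed Trem2 (0.957) and Pros1 (0.952), while Axl followed Megf10 (0.928) and Adgrb1 (0.907).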

How the data were processed

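RNA of 56 libraries was measured by RNA-seq, and the authors deposited 3 tables of raw counts per gene, 1 per mouse line, which were used as deposited. Per the submitters' processing notes the tools were featureCounts 2.0.0, HISAT2 2.2.0, cutadapt 2.9, Trim Galore 0.6.4 and FastQC 0.11.9, and the build was GRCm38 (mm10). The strand setting is not given in the sources used here. Labels put every library in a group by line, fraction and condition, and no 2 libraries held identical values. In the knockout line and for heterozygous mice 14 and 15 the numbers name mice that gave both hemispheres. In the astrocyte line they name no animal. The main fits had no term for the mouse, so their p-values measure the spread between libraries in every line.

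Tests used R 4.3.3 and edgeR 4.0.16 (TMM scaling, filterByExpr, quasi-likelihood F test, two-sided, Benjamini-Hochberg adjustment over all genes tested, called at an adjusted p below 0.05). The 14 comparisons were 6 of deprived against control, 3 of bound against unbound, 3 differences of that enrichment between lines, and knockout against heterozygous for the level and for the deprivation effect in bound RNA. A prior count of 2 was used for log2 CPM only, and the fitted log2 differences of edgeR use its default. Printed CPM share 1 TMM scale over all libraries, and levels per kilobase use the summed exon length of GENCODE vM21. Comparisons between lines used the genes that the tables share.

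Samples of the same mouse deviated together in most pairs (r of 0.17 to 0.38 in heterozygous bound RNA, 0.36 to 0.38 in unbound RNA, 0.10 to 0.51 in knockout bound RNA and -0.10 to 0.52 in unbound RNA). In the astrocyte line same-numbered libraries did so in 1 of 5 bound and 4 of 5 unbound pairs. Alternatives were the size factors and Wald test of DESeq2 1.42.0, no filter on low counts, the replicate block, all 4 groups of a line in 1 fit, each library left out, other groupings of the heterozygous pieces, and, chosen after seeing the data, leaving out knockout mouse 7, scaling to microglia markers, mice 14 and 15 alone, and summed libraries of mice 17 and 21. On counts simulated for heterozygous bound RNA (18001 genes), 71.7% of genes changed by 1 on the log2 scale and 93.7% of those changed by 2 were recovered. Calls of unchanged genes numbered 11. The simulated libraries were independent, unlike the 2 hemispheres of mouse 17 or 21 within a group. Both sizes exceed the largest member difference there (0.53, Tyrobp), so recovery at the sizes of the members was not tested.

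Every member was tested in each comparison, but for some comparisons only part of the members are named or a range of values is given. Of each list of other engulfment genes, those named are among the 4 called with the smallest p and the 2 called in the other direction. The members and lists were chosen with earlier results of these data known.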

Additional observations from a re-analysis of the deposited data

Results flagged for a closer look

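Among 120 sets of 4 or 5 libraries (10 genes in 12 groups), 3 had a library far from the others, where chance alone gives about 1 in 20. Tyro3 was at 8.18 CPM in deprived astrocyte bound replicate 3 and at 9.05 to 9.30 CPM in the other 4 libraries. Gulp1 was at 9.61 CPM in control knockout bound RNA of mouse 18 and at 6.58 to 7.18 CPM in the others, and without that library its deprivation difference was -0.31 ± 0.13 in place of -0.42 ± 0.14. Trem2 was at 1.27 CPM in control knockout unbound RNA of mouse 7 and at 0.54 to 0.666 CPM in the others, and the bound libraries of the same mouse held the least Trem2 of the line.

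Enrichment of bound over unbound RNA differed between the astrocyte line and either microglial line, by a test of the difference, for the same 7 members. Against the heterozygous and the knockout line, the astrocyte minus microglia difference (log2) was 0.64 and 0.59 for Axl and 0.95 and 0.87 for Gulp1. It was -0.44 and -0.54 for Tyro3, -0.66 and -0.62 for Gas6, -0.87 and -0.92 for Pros1, -2.82 and -2.76 for Trem2, and -3.36 and -3.28 for Tyrobp. Both sets of differences use the same astrocyte libraries, and the lines coincide with count tables, with tamoxifen and with depth.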

How the results depend on the processing

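Of 2580 values of single members under alternatives, 2532 stayed on their side of the threshold with no called direction turned (in 207 of them a value that was not called changed sign), 28 lost a call, 19 gained one and 1 reversed. Enrichment calls of all members held in each line under every alternative run. The called value that reversed was Axl after whisker loss in heterozygous bound RNA, at -0.0898 with libraries scaled to microglia markers, a scaling that lowered the median of all genes to -0.51. There 6 uncalled members also turned below 0 (Mertk, Gas6, Pros1, Megf10, Gulp1 and Trem2, -0.36 to -0.02), and Tyro3 gained a call at -0.55 (adjusted p = 0.0137). In that comparison the number of members called was 3 and became 0 with the replicate block (mouse), 0 with groups by side letter, 0 without pieces 17R and 21L, 0 with mice 14 and 15 alone under the block, 0 with the libraries of mice 17 and 21 summed, and 0 to 3 with 1 library left out. In heterozygous unbound RNA it was 0 to 2 with 1 library left out, where Gulp1 and Tyrobp were called without control replicate 7 (0.54 and 0.61). For the difference of the deprivation effect between genotypes it was 1 with DESeq2. The block changed no other call of a member save that of Megf10 given above. Among members uncalled in heterozygous bound RNA, Mertk was called in a joint fit of all 4 groups (0.34) and without control replicate 2 (0.43). Pros1 was called with DESeq2 (0.37) and without control replicate 1 (0.49). Trem2, at an adjusted p of 0.111 in the main edgeR test, was called without a filter on low counts (0.45). Mertk's difference between astrocyte and knockout enrichment was called without mouse 7 (-0.49, adjusted p = 0.0131).

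Over all genes, the count called in heterozygous bound RNA was 1850, and was 1092 with the block, 0 by side letter, 741 without pieces 17R and 21L, 951 with summed libraries, 9642 scaled to microglia markers (2.32% higher, against 53.7%) and 938 to 2089 with 1 library left out. The 678 of heterozygous unbound RNA became 226 with the block (84.5% higher, against 72.0%), 0 by side letter, 294 without both pieces, 1459 unfiltered and 1176 with DESeq2. Without a filter, 85 bound and 143 unbound astrocyte genes, 28 bound and 52 unbound knockout genes, 143 genotype genes and 576 genotype-by-deprivation genes were called, against 0, 0, 1, 7, 11 and 100. DESeq2 called 7, 0, 11, 35, 71 and 734. The genotype count was 1 with the libraries of a mouse summed, 22 without mouse 7 and 65 scaled to microglia markers (89.2% higher, against 36.4%), and the interaction count was 2 by side letter, 5 without both pieces, 190 without mouse 7, 7 scaled to markers and 0 to 441 with 1 library left out. Leaving the filter out moved the median enrichment of all astrocyte genes from 0.03 to 0.38 (64.2% of calls higher, against 53.3%) and that of the differences between lines from 0.14 to 0.42 and from 0.06 to 0.46. Of the knockout genes, 2 bound and 3 unbound were called with the block, and 0 and 0 without mouse 7. Depth limits Trem2 most, with 4 to 42 counts a library in the astrocyte line.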
